A study of Mus musculus with 12 samples.

Results

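CMC, a water-soluble carbodiimide that binds uridine, guanosine and pseudouridine, was applied to RNA from wild-type mouse hearts and the sequenced RNA was compared with untreated RNA of the same genotype. The comparison took the wild-type libraries by their genotype and treatment labels, which gave 6 of the 12 libraries of the series: 3 untreated (WT_untreated) and 3 treated (WT_CMC). The other 6 come from PTCD1 knockout hearts, again 3 untreated and 3 treated, and are used here only where the wild-type effect is set beside theirs. All libraries were made from total heart RNA after Ribo-Zero depletion of cytoplasmic ribosomal RNA, with TruSeq chemistry, so treatment acted on isolated RNA and not on the animal. The labels give neither strain, age nor sex, name no batch, and do not say whether libraries came from separate animals, so p-values measure only the spread between these samples.

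In the pseudouridine assay CMC is removed from uridine and guanosine by alkali and remains on pseudouridine, where it stops or disturbs reverse transcription. Pseudouridine is made by stand-alone synthases or by small RNAs of the H/ACA class that guide dyskerin to their targets. It is frequent in the small nuclear RNAs of the spliceosome and in ribosomal RNA, including the 16S rRNA of the mitochondrial large ribosomal subunit.

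The small nuclear RNAs below are shown because they include the gene with the strongest response and relatives of the same splicing machinery with other responses. Each is the GENCODE M21 transcript on mm10, with uridines written as T in capitals. U2, at chr11:101645740-101645930 on the minus strand (Gm23971), pairs with the intron branch point. U4, at chr5:115489459-115489599 on the plus strand (Gm24265), pairs with U6. U12, at chr15:83149644-83149794 on the plus strand (Rnu12), does the work of U2 in the minor spliceosome. U1, at chr12:54734555-54734718 on the minus strand (Gm24305), pairs with the 5′ splice site. No annotation used here names Gm24265 as U4, and that name rests on its sequence.
U2: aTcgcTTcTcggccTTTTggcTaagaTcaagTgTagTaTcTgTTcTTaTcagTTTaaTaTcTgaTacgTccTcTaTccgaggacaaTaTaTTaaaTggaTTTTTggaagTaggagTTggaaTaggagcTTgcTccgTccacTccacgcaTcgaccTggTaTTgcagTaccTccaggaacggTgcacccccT
U4: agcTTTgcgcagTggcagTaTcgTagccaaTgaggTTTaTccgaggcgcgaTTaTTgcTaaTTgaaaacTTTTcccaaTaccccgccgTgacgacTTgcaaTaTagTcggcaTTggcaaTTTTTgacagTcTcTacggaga
U12: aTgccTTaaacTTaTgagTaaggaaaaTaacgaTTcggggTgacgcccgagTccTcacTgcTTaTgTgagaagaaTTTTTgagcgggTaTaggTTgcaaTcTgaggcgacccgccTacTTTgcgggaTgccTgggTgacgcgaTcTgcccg
U1: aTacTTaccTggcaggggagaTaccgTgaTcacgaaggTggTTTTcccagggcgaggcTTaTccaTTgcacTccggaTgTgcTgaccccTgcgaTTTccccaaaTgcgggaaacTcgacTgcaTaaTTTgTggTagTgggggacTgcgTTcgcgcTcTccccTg
Uridines make up 30.9% of the U2 sequence, 28.4% of U4, 25.2% of U12 and 25.0% of U1.

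The wild-type libraries held 10389398 to 11057741 counts, of which 70.5% to 72.8% were mitochondrial and 2951322 to 3187748 nuclear. The third treated library stood apart: its mitochondrial share was 72.4%, against 70.8% and 70.5% in the other treated libraries. A chi-square over nuclear genes with at least 20 counts gave 2.08 and 2.43 per degree of freedom between it and the others, against 1.39 between those, and 1.12 to 1.13 among untreated libraries. Gene counts that it moved by over 1.5 times are also given without it. Summed cardiomyocyte markers were 55647 to 56563 counts per 1000000 counts of the scaled library (CPM) in untreated and 53736 to 57074 in treated libraries. None of the 9 passed by edgeR or DESeq2, 3 had an unadjusted p under 0.05, and none was at 0. Markers of other cells moved in part. Summed fibroblast markers were 509 to 536 CPM untreated and 480 to 501 treated. Of 5 tested Dcn was lower by edgeR (log2 fold change -0.19) and not called by DESeq2. Summed smooth muscle markers were 183 to 199 and 205 to 210 CPM, and none of the 4 passed by edgeR or DESeq2, with 2 at an unadjusted p under 0.05. Skeletal muscle markers summed to 664 to 677 and 724 to 782 CPM, and both tested, Ckm (0.17) and Acta1 (0.20), were higher by edgeR and not called by DESeq2. Among 5 erythroid markers Hba-a2 was higher (0.65) while their sums overlapped, at 131 to 183 and 127 to 153 CPM. No endothelial, macrophage or brown fat marker passed by edgeR or DESeq2; 1 of 5 endothelial markers and 0 of the others had an unadjusted p under 0.05. Their part in the results below was not tested.

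U2 snRNA nearly disappeared from the treated libraries. Its main gene, Gm23971, had 1554, 1377 and 1534 counts in the untreated libraries and 46, 53 and 30 in the treated ones. The groups did not overlap, and every treated value lay far under the lowest untreated one. The log2 fold change was -5.18 (SE 0.10, adjusted p = 4.48e-27, edgeR quasi-likelihood test with Benjamini-Hochberg adjustment, n = 3 and 3). A second U2 copy, Gm25939, went from 254, 247 and 248 counts to 12, 21 and 13, a log2 fold change of -4.09 (SE 0.15). Reads can be split among near-identical copies, so counts were also summed over the 14 annotated copies with at least 90% identity to Gm23971: 1840, 1645 and 1809 became 62, 82 and 59, which in CPM was 27.5-fold lower.

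U4 and U12 fell as well, and less than U2. U4 at Gm24265 had 591, 708 and 653 counts untreated and 92, 114 and 106 treated, a log2 fold change of -2.72 (SE 0.09, adjusted p = 5.94e-20 by edgeR). Its other tested copy, Gm24407, fell by 1.93 on the log2 scale. Rnu12 had 242, 299 and 285 counts against 62, 71 and 85, a log2 fold change of -1.99 (SE 0.11, adjusted p = 4.02e-14 by edgeR). In both RNAs the groups were apart in all libraries.

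U11 and U1 did not follow them. Rnu11, the minor-spliceosome counterpart of U1, had 490, 527 and 552 counts untreated and 554, 647 and 671 treated, with a log2 fold change of 0.18 that did not pass (SE 0.07, adjusted p = 0.214 by edgeR). The main U1 gene, Gm24305, rose from 5840, 5769 and 5684 counts to 7219, 8269 and 6185, a log2 fold change of 0.25 (SE 0.06, adjusted p = 0.0116 by edgeR). Over the 33 annotated copies of U1 the summed CPM was 1.25-fold higher, and 1.35-fold higher without the third treated library. Gm23686, a U1 copy with 2, 4 and 5 counts untreated, had 34, 53 and 44 treated, so the copies did not move alike.

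7SK, the abundant RNA that holds the elongation kinase P-TEFb inactive, fell with a small spread. Rn7sk (chr9:78175303-78175633, minus strand) had 36253, 35775 and 36510 counts untreated and 15008, 16509 and 15631 treated. All treated values lay below all untreated ones, and the log2 fold change was -1.28 (SE 0.05, adjusted p = 1.95e-19 by edgeR). The signal recognition particle RNA 7SL was counted at several genes: Rn7s1 fell by 0.87 on the log2 scale (SE 0.06), while Rn7s2 was at -0.27 and did not pass (adjusted p = 0.0866 by edgeR). Rn7s6 passed with a log2 fold change of 3.37, but from 1 library: its counts were 38, 114 and 38 untreated and 1927, 80 and 52 treated, and without the first treated library the change was -0.027.

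Small nucleolar and Cajal-body RNAs, which guide modification of ribosomal and spliceosomal RNA, mostly fell or did not pass the test. Of 25 tested genes of the snoRNA class 2 were higher, 9 were lower and 14 did not pass, while over all 12098 genes tested 0.909% were higher and 1.24% lower. Without the third treated library 6 of the 25 were higher and 10 lower. Box C/D and box H/ACA were assigned by a Snord or Snora symbol alone, so genes of the class without such a symbol are in neither group. All 3 tested box C/D RNAs so named fell: Snord17 from 342, 364 and 340 counts to 98, 111 and 82 (log2 fold change -1.92), Snord15a (-2.31) and Snord118, the U8 RNA of pre-rRNA processing (-1.01). Of 7 Cajal-body RNAs 4 fell, among them Scarna10 at -2.48 and Scarna2 at -0.70, and none rose. Of 6 box H/ACA RNAs 1 rose, Snora78, from 1, 10 and 10 counts to 25, 26 and 13, and none fell. Without the third treated library 3 of these 6 were higher and 1 lower.

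A further group rose. Rny3, a Y RNA bound by Ro60, had 236, 242 and 251 counts untreated and 397, 711 and 295 treated (log2 fold change 0.86, SE 0.16). The treated values were all higher but spread widely, and the third was nearest the untreated ones. Rmrp, the RNA of RNase MRP, rose by 0.39 on the log2 scale (SE 0.06), and Vaultrc5, a vault RNA, by 0.44 (SE 0.11). Rpph1, the RNA of RNase P, was at 0.19 and Rny1 at 0.38, and neither passed with all libraries; without the third treated library both did.

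**Figure D1:**
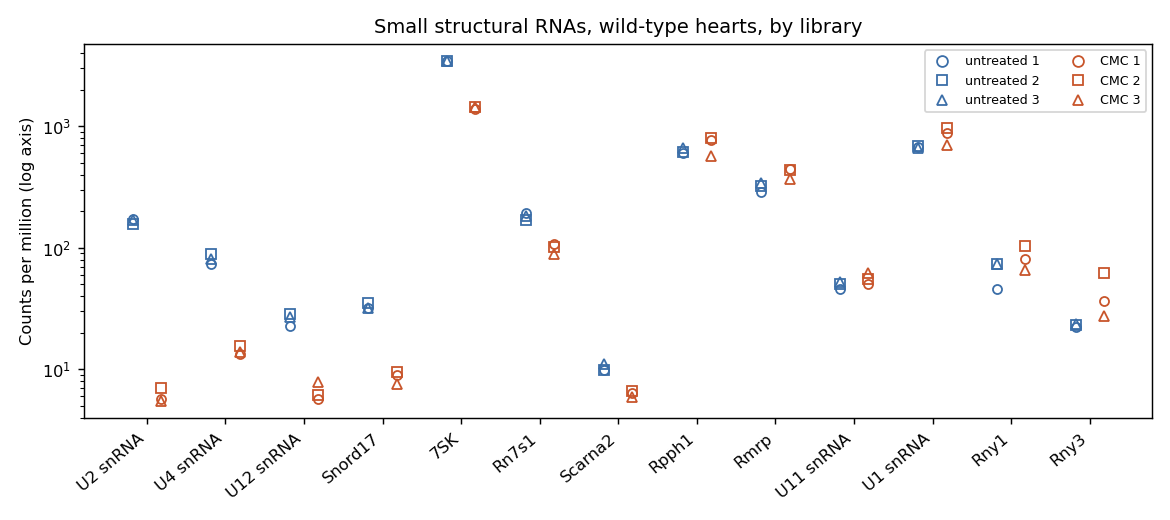
Counts per 1000000 (log axis) of small structural RNAs in each wild-type library; blue marks untreated and orange marks treated libraries, and the shape gives the replicate. U1, U2, U4 and U12 are sums over near-identical copies; U2 lies at 158 to 174 untreated and 5.47 to 7.08 treated, while U1 lies at 668 to 692 and 702 to 958.

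Over all genes, 110 of 12098 tested were higher after treatment (0.909%) and 150 were lower (1.24%), with a median log2 fold change of 0.00. Among 58 small structural RNAs (snRNA, snoRNA, scaRNA, misc_RNA and ribozyme classes) 12 were higher and 19 lower, with a median of -0.30. Without the third treated library 19 were higher and 22 lower. The 29 with uridine content at or above their median of 25.8% had 4 higher and 13 lower and a median of -0.73, or 6 higher and 14 lower without that library. The 29 below it had 8 higher and 6 lower and a median of 0.19, or 13 higher and 8 lower without it. Across the 58, log2 fold change and uridine content had a Spearman correlation of -0.39, given as a description, since copies share sequence and all share the same libraries. Without the third treated library 330 genes were higher and 413 lower. Without the first untreated library 18 were higher and 52 lower, and without the second 30 and 69. Without the third they were 52 and 87, and without the first treated library 39 and 71.

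As shares of all counts, the misc_RNA class, which holds 7SK and 7SL, was 0.375%, 0.383% and 0.385% untreated and 0.213%, 0.203% and 0.180% treated, a ratio of 0.521. This share is mostly 7SK, which had 36253, 35775 and 36510 of the 41482, 41221 and 41714 untreated counts of the class. Of its 11 tested genes 6 were higher and 2 lower, beside 0.909% and 1.24% of all genes tested. Without the third treated library 8 were higher and 3 lower. The snoRNA ratio was 0.701 and the scaRNA ratio 0.596, both with groups that did not overlap. The snRNA share hardly moved, with a ratio of 0.991, as U1 outweighs U2 and U4 in counts. Mitochondrial rRNA took 52.1%, 51.5% and 51.3% untreated and 49.8%, 50.6% and 49.99% treated. With 3 against 3 libraries the exact two-sided permutation test cannot go below p = 0.10, which these classes with separate groups reached (adjusted p = 0.25).

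Protein-coding genes moved little, and by base composition more than by length. Of 11104 tested, 91 were higher and 115 lower, and 298 and 351 without the third treated library. The largest falls under the naming rule included Gapdh (glycolysis; 942, 901 and 938 counts against 533, 557 and 562, log2 fold change -0.82), Ppia (cyclophilin A, -0.67) and Rpl30 (-0.63). The largest rises included Id3 (an inhibitor of helix-loop-helix factors, 0.67), Sipa1 (0.65), Nkx2-5 (a cardiac homeobox factor; 102, 119 and 122 against 200, 190 and 144 counts, 0.56) and Jund (0.55). Gapdh, Ppia and Rpl30 have many processed pseudogenes that could share their reads.

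Among 81 nuclear genes of oxidative phosphorylation, 6 rose and 8 fell, beside 0.909% and 1.24% of all genes. Cox5a rose by 0.51, and Ndufa1, Cox7c and Cox6c were lower at -0.50, -0.48 and -0.44. Without the third treated library 17 of the 81 were higher and 14 lower. Of 81 cytosolic ribosomal protein genes 2 rose and 6 fell, with a median of 0.00, and 7 and 9 were called without that library. None of 16 histone genes, 26 collagens or 12 pseudouridine synthases passed by edgeR or DESeq2. At an unadjusted p under 0.05 edgeR had 4, 7 and 1 of them. Without the third treated library 2 histone genes and 1 collagen were higher. Of 18 giant sarcomere and desmosome genes 1 passed, Myh7, the slow myosin heavy chain, at 568, 479 and 549 counts against 826, 760 and 845 (log2 fold change 0.54); without that library 3 of the 18 were higher and 3 lower. Of 7 nuclear-retained RNAs 2 fell, Malat1 by 0.23 and Neat1 by 0.21 on the log2 scale, and 5 did not pass; 3 were lower without the third treated library.

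By length, genes above 8000 bases and those of 500 to 1000 differed by no more than the spread between libraries. The median log2 fold change was -0.24 in the 41 genes under 200 bases, 0.15 at 200 to 500 bases, 0.01 at 500 to 1000 and -0.03 above 8000. In the class under 200 bases 7 genes were higher and 12 lower, beside 0.909% and 1.24% of all genes tested. Its medians in single libraries were -0.05, 0.04 and 0.02 untreated and -0.11, -0.17 and -0.30 treated, without overlap. None of its genes was nuclear protein-coding. The difference between the classes above 8000 and at 500 to 1000 bases was -0.040 in the fitted changes. In single libraries, set against the untreated mean, it was 0.016, -0.013 and -0.025 untreated and -0.021, -0.021 and -0.027 treated, so that the groups overlapped. After a loess fit on GC content it was 0.048. It was 0.0038 without the second treated library, -0.016 without the first and -0.00997 without the third, and -0.0048 without the first untreated library. By GC content of nuclear protein-coding transcripts, the lowest of 5 equal classes (31.0% to 43.7%) had a median of -0.11 with 3 genes higher and 69 lower, or 9 and 194 without the third treated library. The highest class (55.3% to 72.8%) had a median of 0.15 with 62 higher and 1 lower, or 181 and 5 without it. In each of the 3 treated libraries the highest class lay above the lowest, at 0.18, 0.16 and 0.11 against -0.13, -0.12 and -0.07. Across 11104 genes the Spearman correlation of the change was 0.45 with GC content, -0.42 with uridine content and -0.09 with length, as a description. Genes under 1000 bases took 2.41%, 2.45% and 2.45% of protein-coding counts untreated and 2.33%, 2.28% and 2.45% treated (exact permutation p = 0.2).

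**Figure D2:**
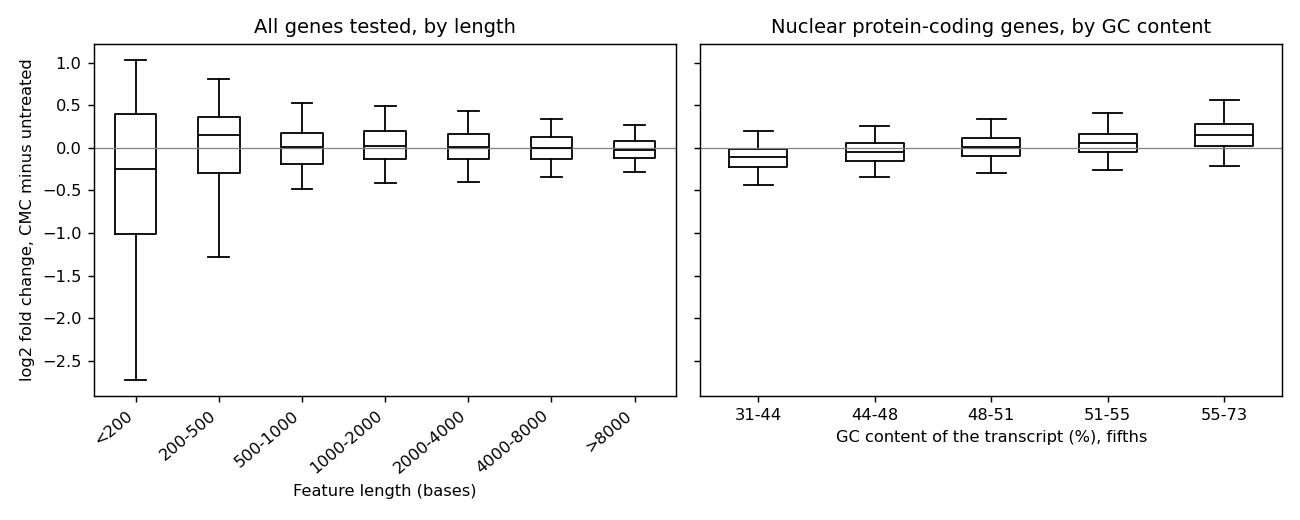
Log2 fold change (treated minus untreated) of all tested genes by feature length in bases, and of nuclear protein-coding genes in 5 equal classes of GC content in percent; boxes give quartiles, the line the median and whiskers the 5th to 95th percentile. Medians range from -0.24 to 0.15 by length and climb from -0.11 to 0.15 by GC content.

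In knockout hearts the same treatment gave 1461 calls among 11911 genes tested (12.3%). Of the 257 wild-type calls tested there, 113 were called in the same direction and 6 in the opposite one. There the U2 gene Gm23971 was at -5.28, the U4 gene Gm24265 at -2.42 and Rnu12 at -1.76. None of these effects differed between genotypes at the adjusted threshold: wild type minus knockout was 0.10 (SE 0.19), -0.30 (SE 0.18) and -0.24 (SE 0.20). The difference of the effects was called for 187 of 12788 genes (1.46%).

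Deletions in reads of mitochondrial RNA were more frequent after treatment. Per 1000000 aligned bases, summed over positions, they numbered 21.6, 20.5 and 21.3 in the untreated libraries and 88.2, 107 and 59.7 in the treated ones, a ratio of 4.03, or 4.63 without the third treated library. No treated library overlapped the untreated range, and the exact permutation p of 0.1 is the smallest this design allows. By base of the coding strand the ratio was 5.42 at G, 4.81 at T, 3.59 at C and 3.50 at A. The G ratio was 3.39 without 16S rRNA. Outside runs of the same base, where an aligner can place a deletion exactly, it was 6.90 at T, 6.72 at G, 5.39 at C and 4.47 at A. The ratio was 4.09 in 16S rRNA, 4.20 in 12S rRNA, 3.87 in mRNAs and 3.48 in tRNA genes. In the control region and spacers the groups overlapped, at 104, 128 and 109 untreated and 188, 230 and 108 treated (ratio 1.55, exact permutation p = 0.3).

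At single positions, 1214 of 1783 tested had more deletions after treatment (68.1%) and 0 had fewer by edgeR. None had fewer at an unadjusted p under 0.05 either, or by limma on log2 odds. Only positions with at least 20 deletions summed over the 6 libraries were tested, out of 15551 with enough depth. Positions with few untreated deletions could enter through treated reads alone. The shares called, by base too, and the absence of falls therefore depend in part on this filter. In 1136 of the called positions the groups did not overlap. Selection by p in the same libraries favours this, so it is no separate support. Shares were low: the median over these positions was 0.00286% of reads untreated and 0.0290% treated, and 138 reached 0.1%. They lay in 753 runs of neighbouring positions, the longest of 7, so positions are not independent. By base 74.9% of tested T positions were called, 65.0% of G, 64.9% of C and 63.9% of A. In the knockout, 1049 of 1994 positions were called (52.6%), which included 745 of the 909 wild-type calls tested there. The effect was larger in wild type at 20 of 3027 positions (0.661%). Summed over positions, the ratio was 2.63 in the knockout against 4.03 in wild type, and that difference was not tested.

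Windows of the coding strand around the 10 positions of smallest p are shown, with the base in question in capitals, because they show the bases at which deletions appeared. Numbers count from the 5′ end of the gene, and positions are those of chrM on mm10, plus strand. In the order shown the windows span chrM:2497-2521, chrM:1207-1231, chrM:2032-2056, chrM:2033-2057, chrM:1542-1566, chrM:9517-9541, chrM:2257-2281, chrM:1940-1964, chrM:1545-1569 and chrM:1290-1314.
16S base 1416: tcctacgtgatcTgagttcagaccg
16S base 126: ctagtaccgcaaGggaaagatgaaa
16S base 951: agcataatcactTgttccttaatta
16S base 952: gcataatcacttGttccttaattag
16S base 461: ctcttctggaacGgaaaaaaccttt
mt-Nd3 base 71: ttgcattctgacTcccccaaataaa
16S base 1176: gacctcggagaaTaaaaaatcctcc
16S base 859: aaaaacatcaccTctagcattacaa
16S base 464: ttctggaacggaAaaaacctttaat
16S base 209: taactagaaaacTtctaactaaaag
Of these 10 bases 6 are T, 3 are G and 1 is A, while the 1783 tested positions held 630 T, 143 G, 654 A and 356 C. A small p is reached more readily at deep positions, and 16S rRNA is the deepest mitochondrial feature. Several lie in runs of the same base, and some are neighbours, where the placement of a deletion is not exact.

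Base 1416 of 16S rRNA (chrM position 2509) had the smallest p. Deletions took 0.00359%, 0.00335% and 0.00233% of reads untreated and 0.316%, 0.512% and 0.270% treated, from 7 to 11 reads and 292 to 690 reads. The log2 fold change was 6.86 (SE 0.37, adjusted p = 1.48e-18 by edgeR with log depth as offset). Depth at this base was 298291 to 306693 untreated and 108308 to 134773 treated. In mt-Nd3, base 71 (position 9529) had 0.00851%, 0.00810% and 0.00408% untreated and 0.589%, 0.740% and 0.388% treated (log2 fold change 6.31). It showed the highest shares of the positions named here. At base 951 (position 2044) the shares were 0.00516%, 0.00194% and 0.00336% against 0.184%, 0.238% and 0.127%. Its neighbour 952 had similar counts of deletions, at 639, 1014 and 422 treated against 601, 946 and 410 at base 951. Whether the same reads carried both cannot be told from counts per position. Base 126 (position 1219) gave 0.0563%, 0.0489% and 0.0594% in the treated libraries and was the position among these at which the third treated library was not the lowest. None of these positions differed from the knockout at the adjusted threshold.

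**Figure D3:**
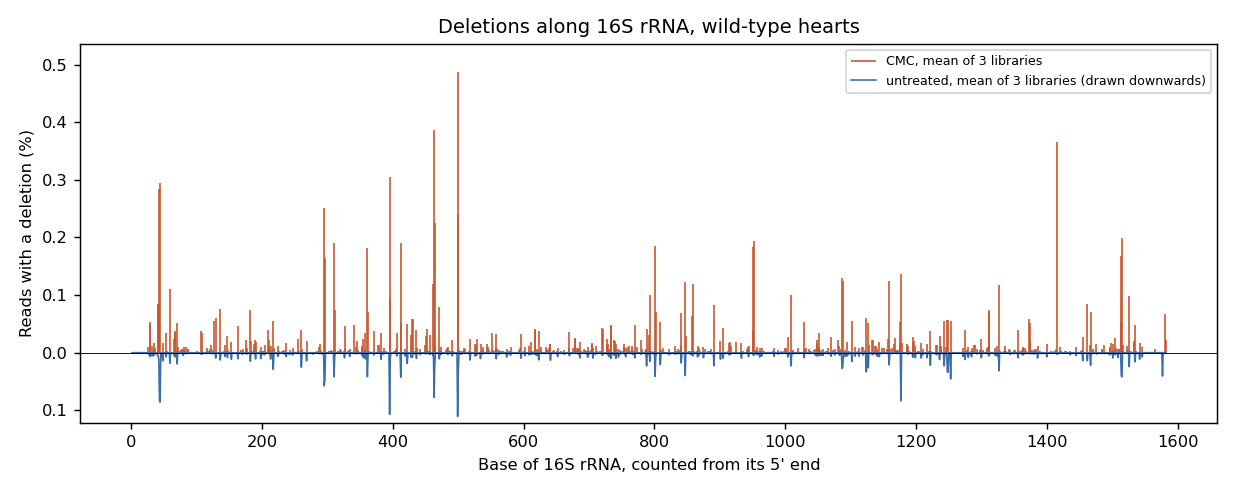
Share of reads with a deletion (%) at each base of 16S rRNA counted from its 5′ end; orange lines give the mean of the 3 treated libraries upward, and the blue line the mean of the 3 untreated libraries drawn downward. Base 1416 reaches 0.366% treated from 0.00309% untreated, while base 499 reaches 0.487% from 0.111%.

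C was read as T more often after treatment. Per 1000000 aligned C bases this substitution numbered 228, 228 and 230 untreated and 756, 814 and 690 treated, a ratio of 3.29, and 2.99 in the knockout. It depended on the next base, with ratios of 4.80 before G, 4.41 before A, 2.90 before T and 1.33 before C. Of 3517 C positions with a depth of at least 1000 in every library, 2185 (62.1%) had all treated above all untreated libraries and 19 the reverse. T to C and G to A also had groups that did not overlap, at ratios of 1.31 and 1.27. In the first treated library A to C, A to G, A to T, C to G and T to G stood above all other wild-type libraries, and these had no separate groups.

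By position, mismatches of any kind were higher at 517 of 13324 (3.88%) and lower at 0 by edgeR, with 128 lower at an unadjusted p under 0.05. Of the 517, 497 were C, and limma on log2 odds called 0 either way. That count rested on single libraries: it was 0 without the first untreated library, 1 without the third, 70 without the second, 1043 without the first treated library and 123 without the second treated one. C at base 819 of 16S rRNA (position 1912) had the smallest p, at 0.0661%, 0.0722% and 0.0575% untreated and 0.212%, 0.204% and 0.194% treated. Insertions, looked at after the other results, were higher at 21 of the 159 positions with at least 20 insertions (13.2%), and lower at 1.

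**Figure D4:**
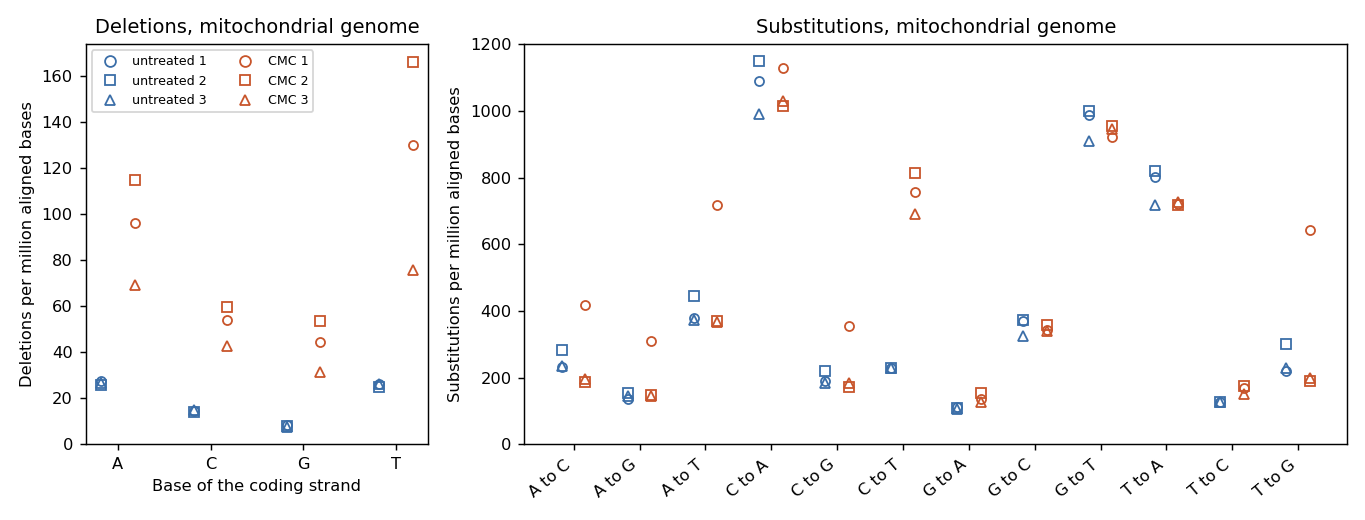
Deletions by base, and the 12 substitutions, per 1000000 aligned bases of that kind, in each wild-type library (blue untreated, orange treated; shape gives the replicate). C to T is at 228 to 230 untreated and 690 to 814 treated, and the first treated library alone is high for A to C, A to G, A to T, C to G and T to G.

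Read depth over most mitochondrial tRNA genes fell. Relative to nuclear library size, 22 of 36 mitochondrial features were lower (61.1%) and 0 were higher by limma, both at the adjusted threshold and at an unadjusted p under 0.05. They were 20 of the 22 tRNA genes, mt-Nd3 and mt-Rnr1. The tRNA genes had a median log2 change of -0.74, against -0.07 for the other 14 features. The largest fall was mt-Tl2, in mean depth per 1000000 scaled nuclear counts, from 43.2 ± 5.14 to 10.6 ± 1.61 (SD, n = 3; log2 change -2.01), followed by mt-Ts2 (-1.51) and mt-Tv (-1.18). mt-Te (-0.21) and mt-Ts1 (0.08) did not pass. Without the third treated library 27 features were lower and 1 higher. mt-Te (-0.34), mt-Co1 (-0.19), mt-Nd1 (-0.20) and mt-Cytb (-0.18) were then among the lower ones, and mt-Ts1 (0.24) was the higher one. Scaled by mitochondrial depth without mt-Rnr2, 18 of the tRNA genes were lower, as was mt-Nd3 (-0.55), while mt-Rnr1 no longer passed (-0.06, adjusted p = 0.393 by limma). The tRNA genes are 58 to 75 bases long, and depth over them includes reads of precursors and neighbouring genes. In gene counts only 1 mitochondrial tRNA gene was tested, at a log2 fold change of 1.03, and it did not pass by edgeR.

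Among gene counts of the mitochondrial genome, 2 of 11 mRNAs tested were lower and 0 higher by edgeR, and 8 were lower without the third treated library. With all libraries mt-Nd3 fell from 26702, 27336 and 27290 to 16879, 16995 and 19766 (log2 fold change -0.67) and mt-Rnr1, the 12S rRNA, by 0.19 on the log2 scale. mt-Nd6, a complex I subunit encoded on the opposite strand, was counted at 23149, 23240 and 23955 untreated and 10740, 9952 and 15591 treated (log2 fold change -1.02), with the third treated library nearest the untreated ones. Total depth over the same interval was at 0.01 on the log2 scale and did not pass. By the feature coordinates deposited with the counts, mt-Nd6 (chrM:13030-14070, minus strand) lies within mt-Nd5 (chrM:11742-14144, plus strand). These are not the bounds of GENCODE M21. The sources used here do not say if reads were counted by strand. mt-Rnr2, the 16S rRNA, was at -0.13 and did not pass (adjusted p = 0.288 by edgeR), though it did without the third treated library (-0.17).

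**Figure D5:**
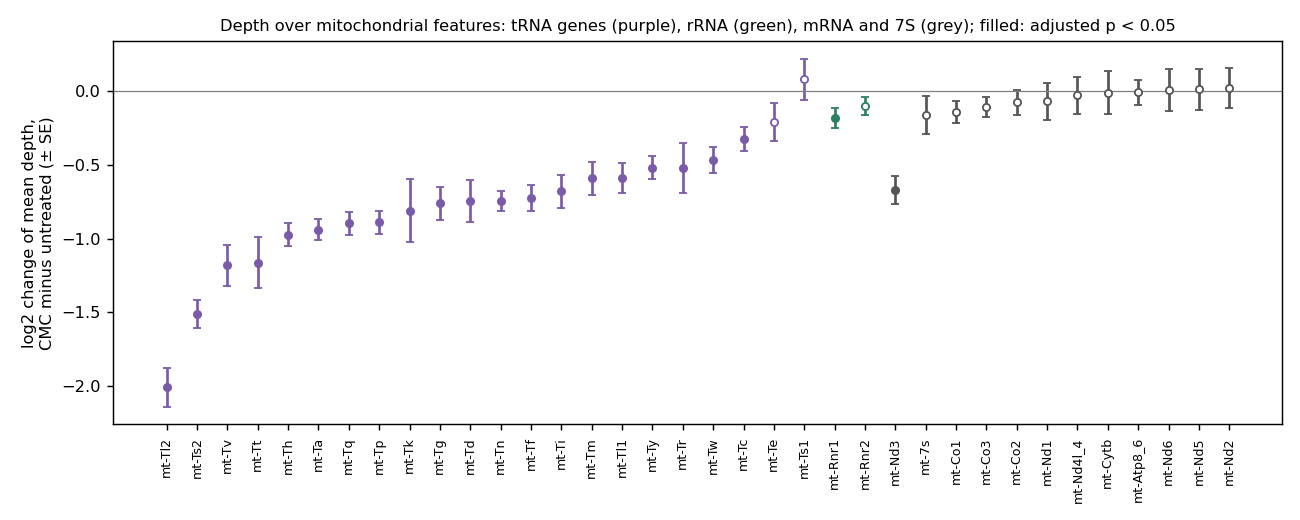
Log2 change of mean depth (treated minus untreated, ± SE) for 36 mitochondrial features, grouped as tRNA genes, rRNAs and others; filled points passed limma at an adjusted p of 0.05. With all libraries, tRNA genes run from -2.01 (mt-Tl2) to 0.08 (mt-Ts1), while most mRNAs lie near 0 and mt-Nd3 at -0.67.

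Depth steps between neighbouring bases, a measure of where reads end, changed at many positions by little. Of 15543 tested by limma, 1169 were higher (7.52%) and 879 lower (5.66%). At base 1737 of mt-Nd5 (position 13478) the log2 step went from -0.29, -0.31 and -0.30 to -0.62, -0.61 and -0.60. Counts of called steps ranged from 210 to 2466 higher and 101 to 2127 lower when a library was left out. No step was called either way when the library numbers were fitted as a block.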

How the data were processed

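Total RNA of mouse hearts was sequenced. Per the file headers, each deposited gene table gives unnormalised counts and the deposited per-base tables give counts of reads, mismatches, deletions and insertions at each mitochondrial position. The tools named per the submitters' processing notes, without roles, were featureCounts 1.5.1, HISAT2 2.0.5, DESeq2 1.16.1 and SAMtools 1.5, with build mm10. At 185 positions, all in mt-Rnr2, depth reached at least 900000 reads in a library, where a ceiling on depth may apply. Of 51911 features, 51629 matched GENCODE M21.

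The quasi-likelihood test of edgeR 4.0.16 was run on the 6 wild-type libraries after filterByExpr and TMM scaling. Deletions and mismatches were tested likewise with log depth as offset, at positions with a depth of at least 100 in each library and at least 20 events. Steps were tested with limma 3.58.1 as the log2 ratio of neighbouring depths after adding 1 read, and mean feature depth after adding 0.5. Calls had an adjusted p under 0.05. Effects in wild type and knockout were compared as a contrast over all 12 libraries. Substitution rates left out positions whose alternative base reached 1%. The scripts were tested on simulated data. Named genes were the 12 largest called changes each way with at least 5 CPM, no overlap and no provisional name, all mitochondrial genes, and up to 4 called per class or list (its 2 most abundant where none was called); other genes of the small-RNA and gene lists were named after their values were seen. Named positions had the smallest p. Members and lists were chosen with earlier results of these data known. Intervals of counting error were not computed.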

Additional observations from a re-analysis of the deposited data

Results flagged for a closer look

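The effect of treatment differed between wild-type and knockout hearts, by the edgeR contrast over 12 libraries, for 19 of the 109 named genes, beside 1.46% of all genes tested (187 of 12788) and 32 of the 260 genes called in wild type (12.3%). Larger (more positive) effects in wild type were seen for Id3 (difference of log2 fold changes 1.34), Vaultrc5 (1.13), Rny3 (0.82), Ncdn (0.71), Apba3 (0.58), Cox5a (0.43) and Myh7 (0.38). Id3 and Vaultrc5 rose in wild type, by 0.67 and 0.44, and fell in the knockout, at -0.67 and -0.68. The difference was negative for mt-Nd2 (-0.58), mt-Cytb (-0.57), Ndufa1 (-0.54), mt-Nd5 (-0.52), mt-Nd1 (-0.50), mt-Nd4l_4 (-0.47), mt-Nd3 (-0.45), D830005E20Rik (-0.64), Kcnq1ot1 (-0.31), mt-Nd6 (-0.40), mt-Atp8_6 (-0.29) and Cox6c (-0.28). Adjusted p ranged from 3.72e-08 for Vaultrc5 to 0.0480 for mt-Nd6.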

How the results depend on the processing

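The counts of called genes were 27 higher and 55 lower by DESeq2, and 194 and 242 with all 12 libraries in 1 fit. Leaving out 1 library gave 18 to 330 higher and 52 to 413 lower. In checks of named genes with 1 library left out, 116 lost their call, 9 gained one, 526 kept their status and 3 changed sign. Lost calls were most frequent without the first untreated library, at 35 over named genes and positions. mt-Nd2 and mt-Cytb turned negative without the third treated library (-0.12 and -0.18), and Rn7s6 without the first (-0.027). With a library left out, mt-Nd2 lay between -0.12 and 0.16, mt-Cytb between -0.18 and 0.13, and Rn7s6 between -0.027 and 4.12. The length difference was -0.036 in protein-coding genes only, 0.048 after the GC fit, -0.034 with the replicate block and -0.036 to 0.0038 with a library left out. Deletions were higher at 749 positions with at least 50 events, and at 885 to 1232 higher and 0 to 3 lower without a library. Mismatches were lower at 2 positions with at least 50 events, 1 at a depth of 1000 and 2 without the deepest positions; they were higher at 0 by limma on log2 odds and 47 with the replicate block, and without a library at 0 to 1043 higher and 0 to 371 lower. Steps had 0 higher and 0 lower calls with the replicate block, and 210 to 2466 and 101 to 2127 without a library. Feature depth gave 0 to 1 higher and 19 to 27 lower without a library. The protein-coding ratio was 1.01 as a share of nuclear counts, and the ratio for genes under 2000 bases 1.001. Deletion ratios outside runs were 4.47 at A, 5.39 at C and 6.90 at T, and 3.39 at G without 16S rRNA. The cause of these changes was not tested.

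Without a library, ratios were 0.502 to 0.545 for misc_RNA, 0.632 to 0.767 for snoRNA, 0.911 to 1.09 for snRNA, 0.982 to 1.04 for mitochondrial mRNA, 0.966 to 0.975 for mitochondrial rRNA, 1.04 to 1.08 for protein-coding genes and 0.946 to 0.980 for short genes, and deletion ratios were 3.10 to 3.96 at A, 3.33 to 3.91 at C, 4.77 to 6.15 at G and 3.99 to 5.74 at T. The labels number untreated and treated libraries alike but do not say if equal numbers share an animal. Same-numbered libraries did not deviate together (r of -0.020, -0.012 and -0.026), and the numbers were not taken as pairs. Untreated libraries differed little among themselves (chi-square of 1.12 to 1.13 per degree of freedom), so this check could hardly show pairing. The replicate block gave 117 genes higher and 140 lower. For nuclear genes, 2951322 to 3187748 counts per library limit the precision.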
